A study of Mus musculus with 247 samples.

Results

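PU.1 binding was compared across genotype and LPS treatment in RAW264.7 cells, a mouse macrophage line of BALB/c origin, and the quantity described is the interaction of both factors at each binding site. All 52093 sites of the deposited PU.1 table belong to the comparison, and 52009 of them passed the filter on low values and were tested. The interaction is the log2 change with LPS in GPS2 KO cells minus the log2 change with LPS in wild-type (WT) cells, so a positive value means that binding at the site changed more in the upward direction after LPS when GPS2 was missing. It rests on 8 of the 247 samples of the series, which are 2 libraries of each of 4 groups: WT untreated, WT with LPS for 2 hours, GPS2 KO untreated and GPS2 KO with LPS for 2 hours. The series profiled transcription factors, cofactors, chromatin and RNA in RAW264.7 cells, with and without LPS. The protocol in the labels names CRISPR/Cas9 as the source of knockouts, and whether the GPS2 KO cells are 1 clone or a pool is not given in the sources used here. No LPS dose is given for the PU.1 libraries in those sources either.

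PU.1, encoded by Spi1, is an ETS-family transcription factor that binds DNA around the core word GGAA and opens and maintains enhancers in macrophages, where it is needed for the identity of the cell. GPS2 is a subunit of the NCoR/SMRT and HDAC3 corepressor complex, which holds inflammatory genes down in resting macrophages. LPS is a bacterial cell wall component sensed by TLR4, which activates NF-kB, AP-1 and interferon regulatory factors and moves enhancer-bound factors to new places in the genome.

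Each pair of PU.1 libraries agreed within sampling noise. The chi-square per site was 0.88 to 0.97 for the 4 pairs of the same group, where 1 is pure counting error, and 1.68 to 2.71 for the 24 pairs of different groups. The labels do not say that replicates came from separate cultures, so both libraries of a group were counted as 1 sample, no SD is given, both values are printed, and every p below compares these libraries and not repeated experiments. The libraries held 8096466 to 10389811 mapped reads. The share of reads in PU.1 sites was 24.8% to 25.2% in WT untreated, 17.2% to 17.5% in GPS2 KO untreated, 15.5% to 16% in WT with LPS and 11.7% in both GPS2 KO libraries with LPS, and its part in the results was not tested. In RNA libraries of the same line, Gps2 stood at 415 to 495 reads per 10000000 in 8 WT libraries and at 76.9 to 135 in 8 GPS2 KO libraries. Macrophage markers, with values for 8 of 10 listed genes, summed to 83900 to 123000 in these 16 libraries. Only 2 of 7 lymphocyte markers (Cd79a and Cd4) and 1 of 5 fibroblast and epithelium markers (Col1a1) had values. These summed to 0 to 1.92 and 0 to 1.1.

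Many sites with positive interactions lay in copies of RLTR45, the long terminal repeat of a mouse endogenous retrovirus of the ERVK class. The 4 called copies below were picked for a small p among those that hold the word AAAAGGGGAAGT, so they share it by choice, and they are shown with 2 copies that were not called. Capitals mark that word, which holds the ETS core GGAA, and, in the Gm12381 copy, a C/EBP word (TTGCNNAA) beside it. Sequences come from the mm9 reference genome, 5′ to 3′ on the strand given, and each site is named by its nearest gene.
Gm21637, chrX:31533102-31533150, minus strand: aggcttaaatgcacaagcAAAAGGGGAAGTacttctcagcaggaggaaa
Dusp11, chr6:85928949-85928997, minus strand: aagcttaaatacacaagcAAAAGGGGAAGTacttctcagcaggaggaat
Clec2e, chr6:129038674-129038722, plus strand: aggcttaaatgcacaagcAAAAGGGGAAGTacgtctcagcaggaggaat
Gm12381, chr4:39060466-39060514, minus strand: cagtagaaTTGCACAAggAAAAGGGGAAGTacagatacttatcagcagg
Crot, not called, chr5:9022771-9022819, minus strand: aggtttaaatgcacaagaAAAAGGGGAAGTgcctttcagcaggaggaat
Tmem181b-ps, not called, chr17:6496021-6496069, plus strand: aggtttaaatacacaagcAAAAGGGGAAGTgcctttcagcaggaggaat
The called and the uncalled copies both held the 12-base word, so the word alone did not separate them.

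Another positive group lay in simple GA-rich or CT-rich stretches, where GGAA words follow each other closely. The 2 such sites of smallest p are shown with GGAA in capitals, each with 5 words in 49 bases.
Ksr2, chr5:117896543-117896591, minus strand: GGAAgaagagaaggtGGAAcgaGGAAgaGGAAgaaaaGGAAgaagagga
Mvk, chr5:114929470-114929518, minus strand: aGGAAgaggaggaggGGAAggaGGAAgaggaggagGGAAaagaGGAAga
The negative sites of smallest p outside repeats that hold the longer PU.1 word GAGGAAGT, in capitals, are shown for comparison. The Slc45a1 site holds it 3 times in a short tandem array.
Slc45a1, chr4:149982951-149982999, plus strand: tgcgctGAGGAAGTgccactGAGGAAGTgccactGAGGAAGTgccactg
Esr1, chr10:5744611-5744659, plus strand: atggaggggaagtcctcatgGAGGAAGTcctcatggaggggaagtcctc
Wdr12, chr1:60127727-60127775, minus strand: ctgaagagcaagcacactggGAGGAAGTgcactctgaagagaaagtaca

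Across all tested sites the LPS change of PU.1 binding was called different between the genotypes at 4328 sites, 8.32% of 52009, by limma with precision weights and a Benjamini-Hochberg adjusted p under 0.05. Of these, 2203 (4.24%) were called higher, with the LPS change more positive in GPS2 KO, and 2125 (4.09%) were called lower, with the LPS change more negative in GPS2 KO. The other 47681 sites were not called, while 11504 sites had an unadjusted p under 0.05. Over all sites the median interaction was 0.0011 on the log2 scale, 5% of sites lay below -1.04 and 5% above 1.33, and the median standard error was 0.44. Higher sites had a median interaction of 1.54, and lower sites one of -0.98. Computed from the first libraries alone and from the second libraries alone, the interaction had the same sign at 33181 of all 52009 sites (63.8%). Among called sites, which were chosen from both sets of libraries, this was so at 2198 of the higher and 2122 of the lower sites.

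The higher sites started out above their later level in WT and below it in GPS2 KO. Their median level, in reads per 10000000 mapped reads after scaling, was 29.3 in WT untreated, 18.9 in WT with LPS, 18.9 in GPS2 KO untreated and 37.5 in GPS2 KO with LPS. The lower sites were stronger and had the opposite order, with 49.8, 63.1, 63.5 and 40.3 in the same order of groups. Choosing sites by the interaction fixes which pairs of groups lie apart, so this order is a description.

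Most interactions were crossing or one-sided, not a stronger form of the WT response. Of the higher sites, 1153 rose with LPS in GPS2 KO with no call in WT, 554 fell in WT with no call in GPS2 KO, and 221 fell in WT and rose in GPS2 KO. Both genotypes rose at 65 higher sites, both fell at 4, and neither LPS change was called at 206. Of the lower sites, 978 fell with LPS in GPS2 KO with no call in WT, 747 rose in WT with no call in GPS2 KO, and 170 rose in WT and fell in GPS2 KO. Both rose at 35 lower sites, both fell at 33, and neither was called at 162. A call in 1 genotype and none in the other does not by itself show a difference, and the interaction test is what selected these sites.

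The 4 contrasts that make up the interaction share libraries and are given side by side. With LPS, 5701 sites rose (11.0%) and 3927 fell (7.55%) in WT, and 5627 rose (10.8%) and 4270 fell (8.21%) in GPS2 KO. Library totals turned this balance, to 689 and 30909 in WT and 1550 and 20297 in GPS2 KO, so the patterns of rise and fall above hold for the scaling used here. In GPS2 KO against WT, 2438 sites were higher (4.69%) and 1669 lower (3.21%) without LPS, and 2560 were higher (4.92%) and 2048 lower (3.94%) with LPS. Of the sites called higher for the interaction, 1046 were higher in GPS2 KO only after LPS, 448 were lower in GPS2 KO only before LPS, 179 were both, and 525 had no call in either state. Of the sites called lower, 845 were lower in GPS2 KO only after LPS, 693 were higher only before LPS, 135 were both, and 444 had no call in either.

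The scaling of the libraries sets the balance of higher and lower calls. With library totals in place of the trimmed mean of M values, 3197 sites were called higher and 1122 lower, the median over all sites moved by 0.15, and all 2203 higher sites were called higher again. With library totals the median LPS change over all sites was -0.69 in WT and -0.54 in GPS2 KO, so the direction of a single LPS change depends on the scaling where it is small, and the lower sites' median LPS change in WT turned from 0.35 to -0.35.

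**Figure D1:**
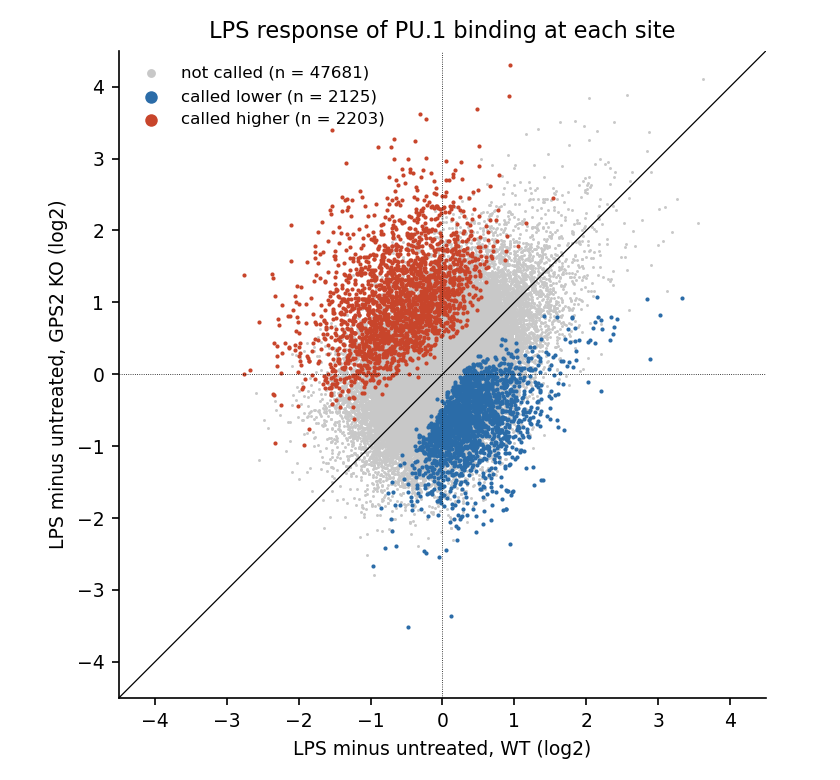
LPS change of PU.1 binding at each tested site, with WT on the horizontal axis and GPS2 KO on the vertical axis (both log2, LPS minus untreated); each point is 1 site and the line marks equal change. The 2203 sites called higher lie above the line, mostly to the upper left, the 2125 called lower lie below it, mostly to the lower right, and the 47681 other sites are grey.

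RLTR45 copies made up 1.00% of the tested sites and 15.9% of those called higher. Of 522 RLTR45 sites, 351 were called higher (67.2%, against 4.24% of all sites) and 3 lower, and 498 (95.4%) had an interaction above 0. Their median interaction was 1.69, with the middle 50% of sites between 1.11 and 2.30. The median level over RLTR45 sites was 21 and 21.2 in the WT untreated libraries, 14.5 and 14.8 in WT with LPS, 15.8 and 14.6 in GPS2 KO untreated, and 36.1 and 37.5 in GPS2 KO with LPS. Only the GPS2 KO libraries with LPS stood above the WT untreated level. The median LPS change was -0.51 in WT and 1.27 in GPS2 KO, and with library totals it was -1.18 and 0.72, so neither direction turned. Without 1 library at a time, 261 to 320 RLTR45 sites were called higher and the median stayed between 1.65 and 1.71. Among the 48 repeat names with at least 50 sites RLTR45 ranked first by median, and the next highest share called higher was 18.7% at RMER16, 14 of 75 sites. Long terminal repeats other than RLTR45 held 5627 sites, of which 254 (4.51%) were called higher and 198 (3.52%) lower. These repeat groups were formed after their values had been seen.

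Among called sites with a mean of at least 30 reads, taking 1 site per gene, 9 of the 10 largest positive values were at RLTR45 sites. The site near Gm21637, chrX:31532939-31533215, had 36.7 and 34.0 reads per 10000000 in WT untreated, 13.3 and 14.8 in WT with LPS, 22.1 and 18.2 in GPS2 KO untreated, and 97.1 and 95.9 in GPS2 KO with LPS. No group overlapped another there, and the interaction was 3.47 ± 0.39 (SE; limma, adjusted p 1.35e-15). The central 50 bases of this site also stood in another PU.1 site's window, so its reads can be split between copies. Near Vmn1r28, a vomeronasal receptor gene, chr6:58229708-58230027 had 35.4 and 32.5, then 14.5 and 29.7, then 12.6 and 14.6, then 90.2 and 68.1 in the same order, an interaction of 3.10 (limma, adjusted p 6.98e-12). There WT with LPS and GPS2 KO untreated overlapped, and GPS2 KO with LPS lay above all other groups. The RLTR45 sites near Tsn (3.25), Tdpoz2 (2.98), Eya1 (2.74), Gm7056 (2.68), 6820431F20Rik (2.67), Gm12789 (2.62) and Gm12381 (2.59) were likewise highest in both GPS2 KO libraries with LPS. The Gm12789 site also shared its central 50 bases with another window. Some nearest genes were far away: the Tsn, Eya1 and Gm12381 sites lay 395409, 214338 and -257985 bases from the gene's start. The last of the 10 largest positive sites, near Nrsn1 (2.59), lay in another repeat, ORR1B2.

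Copies with higher coverage had a lower median interaction. With a mean of at least 30 reads required, the RLTR45 median was 1.35, against 1.69. Then 137 RLTR45 sites were called higher, against 351, but this filter left only 18766 sites of any kind, 1034 of them called higher. The number of RLTR45 sites among these was not counted, so the 2 counts do not compare shares. Near Tbl1xr1, which encodes a subunit of the same corepressor complex as GPS2, the copy at chr3:21634687-21634973 had 148 and 156 reads in WT untreated, 166 and 173 in WT with LPS, 105 and 121 in GPS2 KO untreated, and 266 and 281 in GPS2 KO with LPS. Its interaction was 1.11 ± 0.13 (SE; limma, adjusted p 4.11e-14), and no group overlapped another. It lay -340744 bases from the gene's start. Near Clec2d, a lectin-like ligand gene, chr6:129150037-129150321 had 149 and 142, then 188 and 225, then 99 and 77.6, then 291 and 316, which gave the smallest p of any positive site (interaction 1.26, limma, adjusted p 5.37e-17). The Clec2d site was picked after its p had been seen. Neither site fell with LPS in WT: the log2 LPS change was 0.16 at Tbl1xr1 (limma, adjusted p 0.163), and the Clec2d site rose by 0.50. The uncalled copies shown above were also well covered, with mean levels of 75.6 near Crot, a fatty acid oxidation enzyme gene, and 95.8 near Tmem181b-ps, and interactions of -0.0094 and -0.018. All 5 tested sites nearest Tsn, which encodes an RNA- and DNA-binding protein, were RLTR45 copies called higher, with interactions of 1.06 to 4.94. They lay 265558 to 636212 bases from the Tsn start. The 4.94 site had only 3.63 and 6.35 reads in WT with LPS, 4.21 and 3.64 in GPS2 KO untreated, and an SE of 0.84. Of 8 sites nearest Slc10a2, a bile acid transporter gene, 4 were RLTR45 copies called higher.

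Sequence and chromatin differed among RLTR45 copies. The word AAAAGGGGAAGT, searched on both strands within 100 bases of the site centre, stood in 424 of 515 RLTR45 windows (82.3%), of which 300 were called higher (70.8%, median 1.75). Outside RLTR45 it stood in 0.515% of 51431 windows, 19 of which were called higher (7.17%) with a median of -0.025. A C/EBP word (TTGCNNAA, both strands) was found in 50.3% of RLTR45 windows and in 10.3% of all windows. Copies with it were called higher in 192 of 259 cases (74.1%, median 1.71) and copies without it in 159 of 256 (62.1%, median 1.67). Most RLTR45 sites had no other mark in these data: 17.8% overlapped an ATAC-seq site, 8.24% a JunB site, 3.64% a MED1 site and 3.07% an RNA polymerase II site, against 72.6%, 41.8%, 39.9% and 34.3% of all PU.1 sites. The 93 copies with an ATAC-seq site had a median level of 42.6 and a median interaction of 0.95, and the 429 without one had 20.2 and 1.84. RLTR45 copies resemble each other: the central 50 bases of 146 of 515 windows (28.3%) also stood in another site's window, so reads can be split between copies. Without the sites that share them, 252 of 376 (67.0%) were called higher and the median was again 1.69. The 376 include copies without a complete window. Only exact matches among windows of PU.1 sites were searched, so these values cannot show whether reads were split with copies elsewhere in the genome.

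Sites in GA-rich or CT-rich stretches moved in the same direction by less. Of 1007 such sites, 161 were called higher (16%, against 4.24% of all sites) and 28 lower (2.78%, against 4.09%), and the median interaction was 0.47. Without 1 library at a time the counts were 94 to 147 and 12 to 24, the fewest higher calls without the second WT library with LPS. With a mean of at least 30 required, which left fewer sites to test, 58 were called higher and the median was 0.18. Their median level was 20.3 and 18.9 in WT untreated, 18.2 and 19.1 in WT with LPS, 16.8 and 17 in GPS2 KO untreated, and 23.6 and 25 in GPS2 KO with LPS. The GPS2 KO libraries with LPS were again the highest, though the median LPS change in GPS2 KO turned from 0.42 to -0.13 with library totals, where the median interaction was 0.60. The share called higher was 2.52%, 2.21% and 2.27% of windows with 0, 1 and 2 GGAA words, 3.53% with 3 to 4, 5.67% with 5 to 7, and 12.7% of 2100 windows with 8 or more. Outside RLTR45, GA-rich and CT-rich stretches the last share was 9.0% of 1500.

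**Figure D2:**
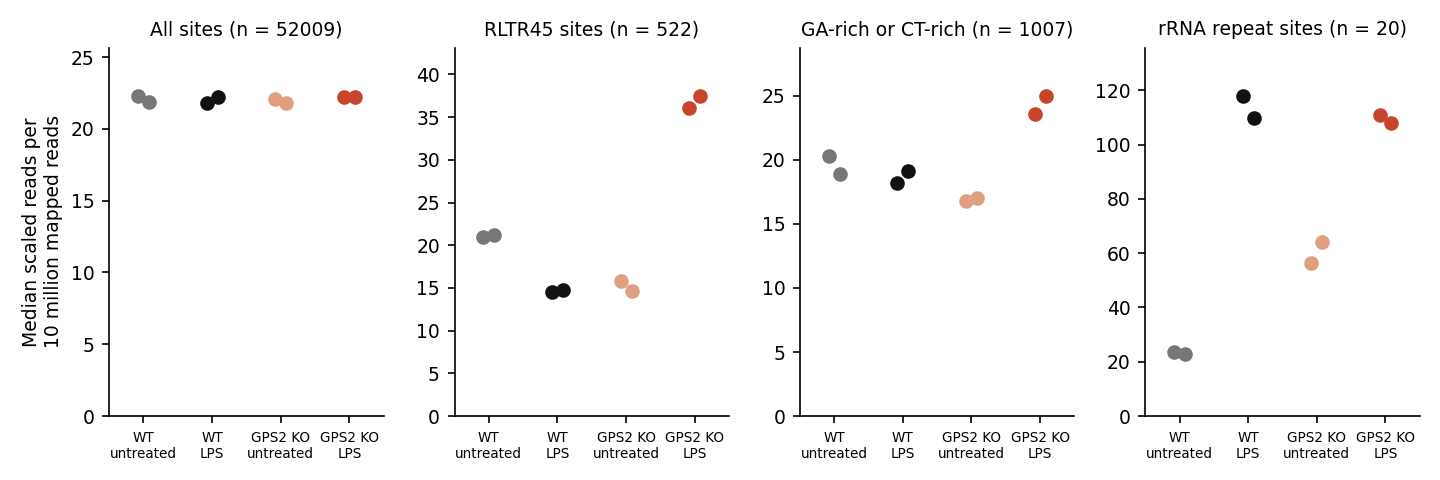
Median PU.1 level per library (scaled reads per 10000000 mapped reads, vertical axis from 0) over all tested sites and over 3 repeat groups, by group of libraries; each point is 1 library. All sites stay near 22 in every library, while RLTR45 sites reach 36.1 and 37.5 in GPS2 KO with LPS and rRNA repeat sites stand at 23.6 and 22.7 in WT untreated against 118 and 110 in WT with LPS.

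Several of the named lower sites lost PU.1 after LPS in GPS2 KO cells with no call in WT cells. Near Ptpn22, which encodes a phosphatase that tunes immune receptor signalling, chr3:103652190-103652462 was annotated as intronic and lay -11392 bases from the Ptpn22 start. It stood in an RLTR22_Mus repeat, which like RLTR45 is of the ERVK class. The site had 117 and 114 reads per 10000000 in WT untreated and 136 and 132 in WT with LPS. It had 130 and 124 in GPS2 KO untreated and 37.5 and 36.1 in GPS2 KO with LPS. The GPS2 KO libraries with LPS stood far below the other 6, with an interaction of -1.97 ± 0.22 (SE; limma, adjusted p 1.36e-15). The intronic site assigned to Ucp3, a mitochondrial uncoupling protein gene, chr7:107579758-107580030, had 45.2 and 63.5, 53.3 and 64.6, 82.1 and 98.2, and 23.6 and 19.5 in the same order (interaction -2.17, limma, adjusted p 1.29e-09). It was highest in GPS2 KO untreated and lowest in GPS2 KO with LPS, and the WT groups overlapped. The intronic site assigned to Slc45a1, 43306 bases from that gene's start, is the one whose tandem words are shown above. It had 166 and 175, 188 and 201, 251 and 272, and 94.3 and 91.8 (interaction -1.67, limma, adjusted p 2.55e-28), with the same order of groups. Sites near Olfr116 (-1.86), in an Lx7 repeat, and Arhgap21 (-1.85), in a B3 repeat, were also lowest in GPS2 KO with LPS. At Arhgap21 the call was lost without the first GPS2 KO library with LPS (adjusted p 0.0853 in limma).

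A second kind of lower site gained PU.1 with LPS in WT and not in GPS2 KO. Near Pid1, a gene linked to insulin signalling, chr1:84284075-84284365 had 14.4 and 18.2 in WT untreated, 77.6 and 61.4 in WT with LPS, 29.5 and 24.3 in GPS2 KO untreated, and 27.8 and 22.2 in GPS2 KO with LPS. WT with LPS was the highest group and WT untreated the lowest, the GPS2 KO groups overlapped between them, and the interaction was -2.14 ± 0.37 (SE; limma, adjusted p 2.16e-06). The Pid1 site lay in a MIRb repeat, and the JunB site there had an interaction of -1.57 in its own libraries. Sites near Usp2, a deubiquitinase gene (-1.97), and Pdzd8, a lipid transfer protein gene (-1.85), rose with LPS in WT and fell with LPS in GPS2 KO.

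Ribosomal RNA repeats formed a small group of their own. Of 20 PU.1 sites annotated as rRNA repeats, 15 were called lower (75.0%, against 4.09% of all sites) and 1 higher, and the median interaction was -1.56. Their median level was 23.6 and 22.7 in WT untreated, 118 and 110 in WT with LPS, 56.3 and 64.3 in GPS2 KO untreated, and 111 and 108 in GPS2 KO with LPS. WT untreated was the lowest group, and both genotypes reached a like level with LPS. The named sites near Myom2 (-2.27) and Txndc11 (-2.20) were such repeats, the former 462279 bases from the Myom2 start. At the 16 rRNA repeat sites with a JunB site the median JunB interaction was -2.12. Ribosomal RNA has many gene copies, so reads at these repeats may not be assignable to 1 place. The central 50 bases of 1 of the 20 windows (5.00%) also stood in another PU.1 site's window. Neither the placing of such reads nor their part in the PU.1 values was tested.

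Higher and lower sites differed in where they lay. Intergenic positions held 56.0% of higher sites, 38.3% of lower sites and 40.8% of all sites, and promoters (within 1000 bases of a start) held 5.13%, 10.2% and 12.9%. A JunB site overlapped 29.8% of higher, 51.0% of lower and 41.8% of all sites, and a MED1 site, which marks the Mediator coactivator, overlapped 18.7%, 57.7% and 39.9%. An ATAC-seq site, which marks open chromatin in untreated cells, overlapped 56.7% of higher, 83.9% of lower and 72.6% of all sites. Repeats of any kind held the centre of 43.9% of higher sites and 22.2% of lower sites, against 24.1% of all.

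Site strength moves with these shares, so they were also read in the highest tertile of mean level, from 30.5 to 1710 reads per 10000000. There the MED1 share was 30.0% of higher, 63.7% of lower and 58.9% of all sites, the JunB share 44.6%, 57.3% and 59.2%, and the ATAC-seq share 73.0%, 90.7% and 90.4%. So for higher sites the shares stayed below those of all sites, and for lower sites they were near them. In this range 14.9% of sites without an ATAC-seq site were called higher, against 4.27% of those with one. The C/EBP word stood in 20.1% of higher, 10.8% of lower and 11.0% of all windows. Over all levels it stood in 10.3% of the higher sites outside RLTR45, as in all windows, so the excess lay in RLTR45 copies. The AP-1 word TGANTCA stood in 7.67% of higher, 11.8% of lower and 13.9% of all windows over all levels, on either strand.

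**Figure D3:**
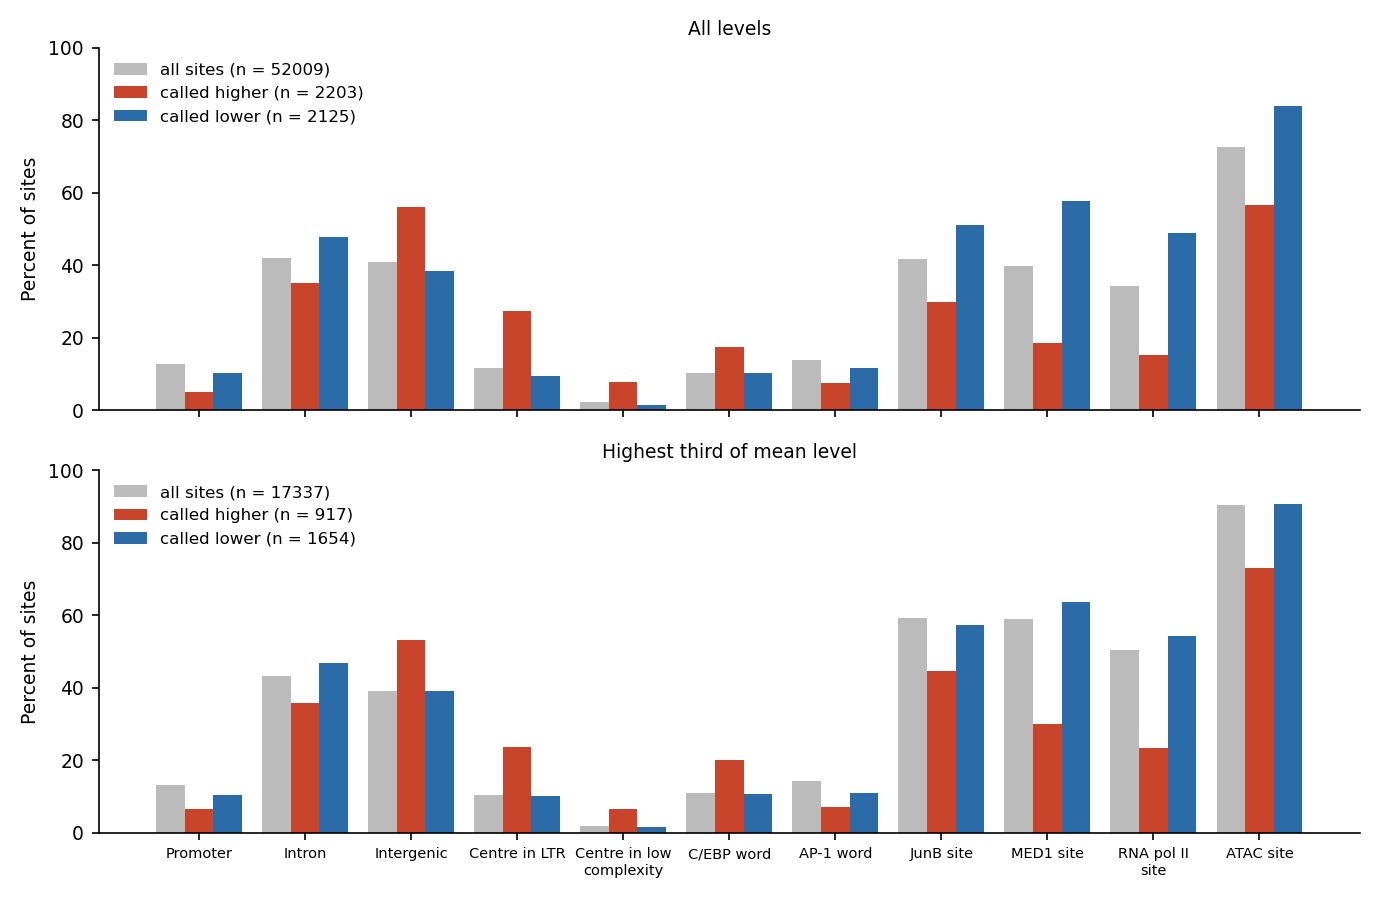
Percent of sites in each class (vertical axis, 0 to 100) for all tested, higher and lower sites, over all levels in the upper panel and in the highest tertile of mean level in the lower panel. Higher sites sit below all sites for promoters, JunB, MED1, RNA polymerase II and ATAC-seq overlap and above them for intergenic, LTR, low complexity and C/EBP classes in both panels.

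The gene lists are given as counts beside the shares over all sites, 4.24% higher and 4.09% lower, and no list was tested against other genes. Sites nearest 28 cytokine and chemokine genes numbered 131, of which 3 were called higher (2.29%) and 3 lower (2.29%), with a median of -0.11. Without 1 library at a time the counts were 2 to 3 and 1 to 4, and with library totals 5 and 1. The promoter site of Ccl2, the chemokine that recruits monocytes, chr11:81848597-81849073, had 91.7 and 85.5 in WT untreated, 89.7 and 108 in WT with LPS, 88.5 and 70.3 in GPS2 KO untreated, and 95.7 and 93.2 in GPS2 KO with LPS. All 4 groups overlapped a neighbour and the interaction was 0.086 ± 0.19 (SE; limma, adjusted p 0.845). Near Csf1, the growth factor of macrophages, 2 sites moved in opposite directions. The site at chr3:107584231-107584520 had 66.8 and 84.7, 53.3 and 47.7, 81.1 and 60.6, and 107 and 93.2 in the same order (interaction 1.05, limma, adjusted p 2.45e-04), and was highest in GPS2 KO with LPS. The site at chr3:107575682-107575965 had 21.6 and 18.9, 54.6 and 50.8, 59.0 and 48.5, and 59.6 and 69.5 (interaction -1.08, limma, adjusted p 0.00618). It was low only in WT untreated, and its call was lost without the first GPS2 KO untreated library (adjusted p 0.0712 in limma).

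Genes of the NF-kB system had 137 sites, 3 called higher (2.19%) and 6 lower (4.38%), near the shares over all sites, and 0 to 1 and 3 to 6 without 1 library at a time. The site in an intron of Birc3, an inhibitor of apoptosis, fell in GPS2 KO and rose in WT (-1.03). That of Irak3, which dampens TLR signalling, was called higher (0.77), but its call was lost in 6 of the 8 fits that leave out 1 library. Interferon genes had 54 sites with 0 higher and 3 lower (5.56%), and 0 to 1 and 1 to 3 without 1 library at a time. The AP-1 list had 94 sites with 1 higher (1.06%) and 5 lower (5.32%), but 5 and 3 with library totals and 3 and 2 with cyclic loess. The intronic Irf1 site (-1.88) rose with LPS in WT, and its call was lost without the second GPS2 KO library with LPS (adjusted p 0.109 in limma). The Junb site at -4054 bases from the start had a value of -0.76. Of 19 sites nearest Jun, 4 were called lower and 1 higher (1.17).

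Macrophage identity genes had 230 sites, with 7 higher (3.04%), 13 lower (5.65%) and a median of 0.0095. Near Marco, a scavenger receptor gene, chr1:122414225-122414497 had 41.9 and 61.3 in WT untreated, 36.4 and 28.6 in WT with LPS, 30.5 and 32.7 in GPS2 KO untreated, and 66.6 and 83.4 in GPS2 KO with LPS. It fell with LPS in WT and rose in GPS2 KO, with an interaction of 1.84 ± 0.30 (SE; limma, adjusted p 2.01e-07), and GPS2 KO with LPS did not overlap the other groups. The most significant lower site of this list was near Tlr2, a receptor for bacterial lipoproteins (-1.07). With library totals the list had 11 higher and 6 lower calls in place of 7 and 13, and without 1 library at a time 4 to 8 and 4 to 10.

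The remaining lists held between 2 and 7 calls in each direction where they had any, beside 4.24% higher and 4.09% lower over all sites. LXR and lipid genes had 84 sites with 2 higher (2.38%) and 5 lower (5.95%). Among the called sites were those near Pparg, the lipid-sensing nuclear receptor (-1.11), and Abcg1, a cholesterol exporter (1.1). Genes of the GPS2 corepressor complex had 53 sites with 2 higher (3.77%) and 3 lower (5.66%), and Tbl1xr1 held calls in both directions (1.11 and -1.13). Lysosome genes had 83 sites with 0 higher and 7 lower (8.43%, against 4.09% of all sites). The 7 lower calls became 4 with library totals, 3 with cyclic loess and 3 without the second GPS2 KO library with LPS. The lysosome site of smallest p, near Ctss, a lysosomal protease gene, differed little (-0.41) and was not called with cyclic loess scaling (-0.16, limma, adjusted p 0.171). Integrated stress response genes had 74 sites with 2 higher (2.70%) and 2 lower (2.70%). Asns, the asparagine synthetase gene, stood at -1.94 and Chac1, a glutathione-degrading enzyme gene, at 1.27. Osteoclast genes had 57 sites with 3 higher (5.26%) and 2 lower (3.51%). Atp6v0d2, a proton pump subunit gene, stood at -1.36 and Ctsk, the bone-degrading protease gene, at 1.19. Cell cycle genes had 76 sites with 2 higher (2.63%) and 5 lower (6.58%). The promoter site of the cell cycle inhibitor Cdkn1a, chr17:29227501-29227775, had 88.5 and 89.3, 92.1 and 106, 107 and 124, and 55.5 and 64.0 in the order used above (interaction -1.09, limma, adjusted p 1.37e-05), lowest in GPS2 KO with LPS. A site near Cdk1, the mitotic kinase, was called higher (1.57). Of these, the calls at Abcg1, Chac1, Ctsk and Cdk1 were each lost in several of the fits that leave out 1 library, and the lower Tbl1xr1 call without the first GPS2 KO library with LPS (adjusted p 0.099 in limma). In at least 1 such fit the higher calls of the LXR and lipid, stress response, osteoclast and cell cycle lists, and the lower calls of the corepressor complex list, fell to 0.

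**Figure D4:**
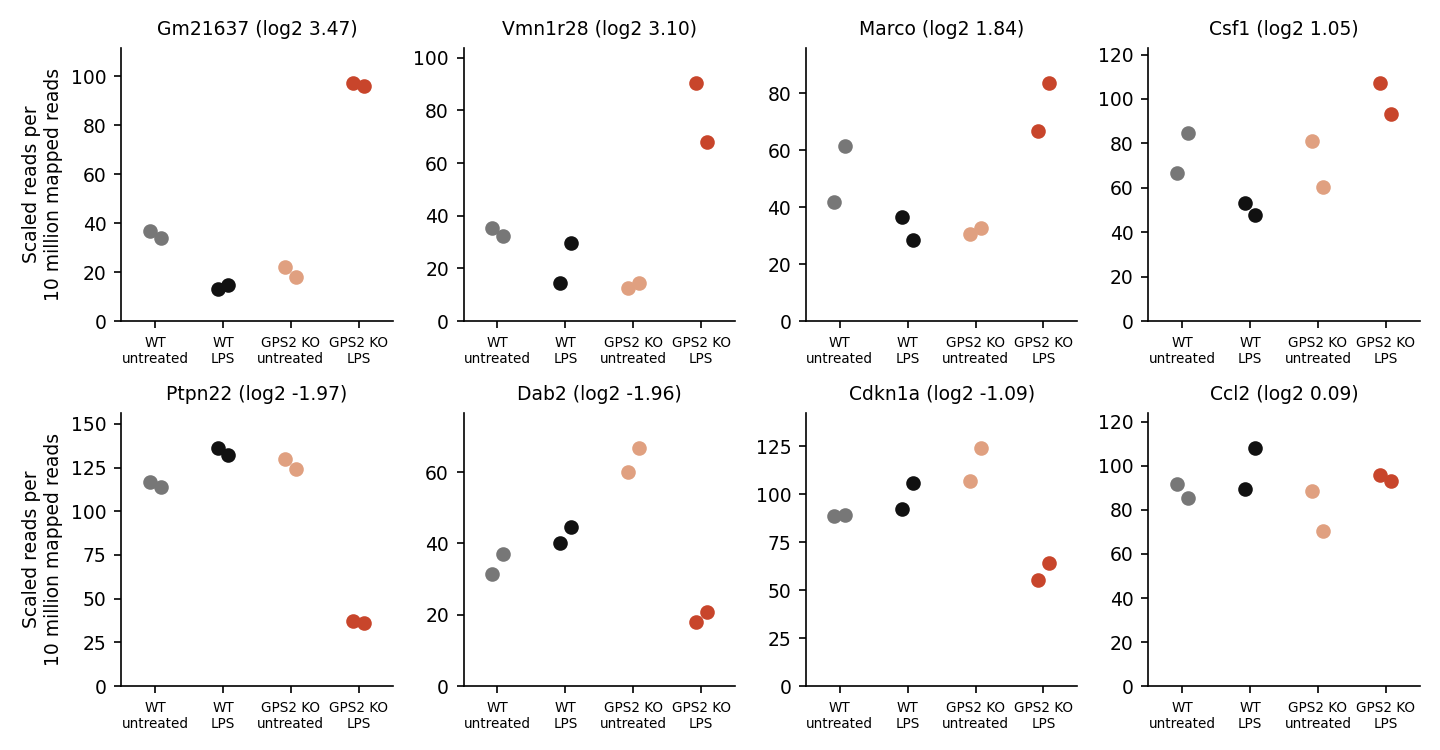
PU.1 level per library (scaled reads per 10000000 mapped reads, vertical axes from 0) at 8 named sites, by group of libraries; each point is 1 library and the title gives the log2 interaction. GPS2 KO with LPS is highest at Gm21637, Vmn1r28, Marco and Csf1, lowest at Ptpn22, Dab2 and Cdkn1a, and within the other groups' range at Ccl2.

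Several genes held runs of called sites, where 4.24% of all sites were called higher and 4.09% lower. Dab2, which encodes an endocytic adaptor, had 7 of its 19 sites called lower and a median of -1.02 over all 19. The strongest, in an intron at chr15:6287515-6287774, had 31.5 and 37.1 in WT untreated, 40.0 and 44.5 in WT with LPS, 60.0 and 66.7 in GPS2 KO untreated, and 18 and 20.9 in GPS2 KO with LPS (interaction -1.96, limma, adjusted p 3.2e-06), and no group overlapped another. Wipf1, an actin regulator gene, had 6 of 15 sites called lower, Fam49b and Gas7 each 5 of 25, and Sema5a, an axon guidance gene, 4 of 8. On the positive side Nr2f1, an orphan nuclear receptor gene, had 5 of 8 sites called higher, none of them an RLTR45 copy. Cntnap5a had 4 of 5 called higher, with 2 RLTR45 copies among its sites. These genes were picked after their values had been seen.

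Dab2, Fam49b and Sema5a lie on chromosome 15, which had the highest share of lower calls of all chromosomes, 178 of 2275 sites (7.82%, against 4.09% of all sites), with 52 higher (2.29%) and a median of -0.15. The next highest share was on chromosome 18, 90 of 1522 sites (5.91%), with a median of -0.16. The PU.1 shift was along part of the chromosome. In the first 10 Mb 34 of 156 sites were called lower (21.8%, median -0.47), from 0 to 70 Mb 126 of 1096 (11.5%, median -0.25), and beyond 70 Mb 52 of 1179 (4.41%, median -0.044). The median JunB interaction was -0.23 over 505 shared sites before 70 Mb and -0.22 over 485 beyond it. Both lay below the JunB median of -0.03 over all 21716 shared sites. The boundaries were set after seeing the values, and the DNA copy number of the 4 groups was not analysed here.

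JunB, an AP-1 subunit that LPS induces, was measured in separate libraries of the same 4 groups and gives a readout that did not enter the PU.1 test. Over the 21716 PU.1 sites with an overlapping JunB site, the median JunB interaction was -0.03, with 508 called higher (2.34%) and 880 lower (4.05%). Over all 58810 tested JunB sites the shares were 2.23% and 3.15%. At the 657 sites where PU.1 was called higher, the median was 0.34, with 58 JunB sites called higher (8.83%) and 14 lower (2.13%). At the 1083 sites where PU.1 was called lower, the median was -0.29, with 4 called higher (0.369%) and 90 lower (8.31%). So the calls in JunB followed the PU.1 direction more often than the background share and most shared sites had no JunB call. Outside repeats the medians were 0.28 and -0.31, and with library totals they were 0.46 and -0.17 against 0.094 over all shared sites. Across the 21716 sites Pearson's r was 0.21, a description over sites that share their libraries. At the 43 RLTR45 sites with a JunB site the median JunB interaction was 0.28. Of these, 1 was called higher (2.33%, against 2.34% of all shared sites) and 0 lower.

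The other readouts covered 1 arm or 1 later time, and their medians at higher and lower sites lay near those over all sites. MED1 in GPS2 KO against WT, both with LPS, had a median of 0.10 at 412 higher sites and -0.092 at 1226 lower sites, against -0.0034 over 20728. MED1 values above 0 made up 60.9% of higher, 40.8% of lower and 49.6% of all these sites. MED1 was called lower at 5.55% of lower and 2.18% of higher sites, against 2.91% of all. It was called higher at 72 lower sites (5.87%, against 6.84% of all) and at 35 of the 412 higher sites. So MED1 leaned in the PU.1 direction, and most of these sites had no MED1 call. RNA polymerase II had medians of -0.17 and -0.071 against -0.07 over all. ATAC-seq in untreated GPS2 KO against control cells had medians of -0.018 and -0.011 against -0.0065. At the 93 RLTR45 sites with an ATAC-seq site its median was 0.10, and 28 were called higher (30.1%, against 4.25% of PU.1 sites with an ATAC-seq site) and 0 lower. PU.1 itself, in untreated GPS2 KO against WT, had a median log2 difference of -0.075 at these 93 sites. Over all ATAC-seq sites 4.04% were called higher and 3.16% lower. The RNA interaction of the nearest gene, with LPS for 6 hours and 4 libraries per group, had a background of 20.7% of 11791 genes called, 10.2% higher and 10.4% lower. Counted once per PU.1 site, the nearest gene was called higher at 14% and lower at 12.2% of higher sites, at 14.3% and 15.0% of lower sites, and at 13.2% and 14% of all 34340 sites with a tested gene. Across these sites the PU.1 and RNA interactions had a Pearson's r of -0.0031, so the nearest gene's RNA at 6 hours did not track the PU.1 interaction at 2 hours.

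The interaction moved with site strength in a way that depended on the scaling. In the lowest tertile of mean level (6.51 to 16.6) the median was 0.15, with 486 sites called higher and 107 lower. In the middle tertile it was 0.042, with 800 and 364, and in the highest tertile -0.11, with 917 and 1654. Cyclic loess, which removes such trends, gave 2263 higher and 1541 lower calls, 1941 and 1412 of which were also called in the same direction above, and under it the RLTR45 median was 1.67. No site called in 1 direction was called in the other under any setting tried.

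**Figure D5:**
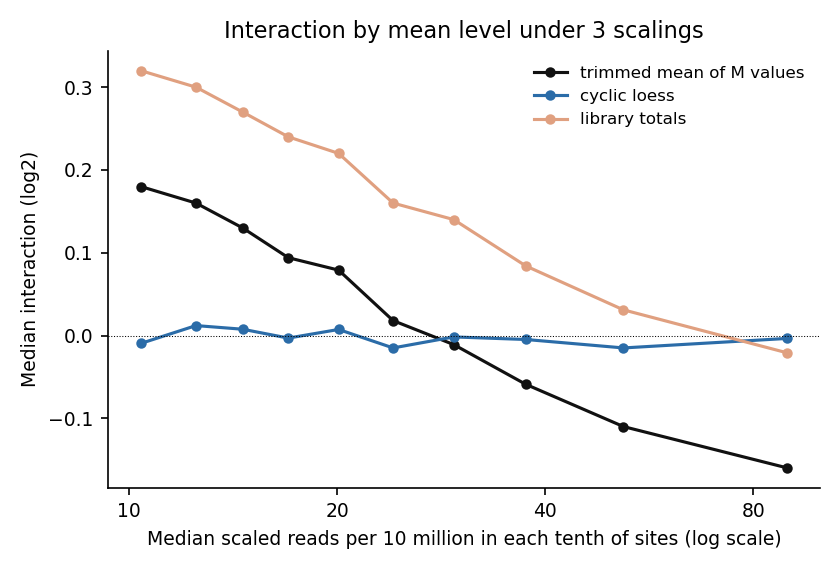
Median interaction (log2, vertical axis) in each of 10 equal groups of sites ordered by mean level (scaled reads per 10000000, log axis), under 3 scalings of the libraries. It falls from 0.18 to -0.16 with the trimmed mean of M values and from 0.32 to -0.021 with library totals, and stays near 0 with cyclic loess.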

How the data were processed

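PU.1, JunB, MED1 and RNA polymerase II binding (ChIP-seq), RNA and ATAC-seq were measured in RAW264.7 cells. The ChIP-seq and RNA tables hold reads per 10000000 mapped reads at each site or gene, per the file headers and the deposited values, and the authors' ATAC-seq table holds log2 values. The submitters' processing notes name Bowtie2, BWA, HISAT2, HOMER, MACS2, DESeq2 and edgeR, without saying which step used which, and build mm9. The 8 per-sample columns that only rescale values used here were not used.

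Whole reads per site were recovered from the mapped-read totals in the headers and used for precision weights and for the scaling factors, which were the trimmed mean of M values (30% of log ratios and 5% of levels trimmed). Sites with at least 10 reads at the median depth in 2 libraries and 15 in all were tested. limma 3.58.1 in R 4.3.3 fitted log2(scaled value + 1) with 1 coefficient per group and robust moderation. Tests were two-sided, and p-values were adjusted over all sites by Benjamini-Hochberg at 0.05. Fold changes on this scale understate changes at low sites. A planned count test was not used, since the values are written with decimal commas and the unit was recorded as a rescaled value. Simulated data for the PU.1 interaction had 51792 fitted sites and an assumed dispersion of 0.005. Changes were placed only in sites with a mean above 50 reads. Of these, 43 of 100 changes of log2 1 and 98 of 100 of log2 2 were recovered. The median level of the tested sites was 21.9, and recovery at sites that weak was not simulated. Among unchanged sites 5.16% had p under 0.05. Intervals and standard errors cover counting error between the libraries only.

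Overlap meant at least 1 shared base (bedtools 2.31.1). Site classes, repeats and nearest genes came from the deposited annotation, and sequence words were searched in 201-base windows of the mm9 genome, 51946 of which were complete. Named sites were the 10 largest positive and 10 largest negative called interactions with a mean of at least 30 and the same sign in both sets of libraries, 1 per nearest gene and leaving out chromosome 18. To these were added the called site of smallest p in each direction for each of 11 gene lists, and the Ccl2 promoter site. The sites, gene lists and classes were chosen with earlier results of these data known, and a few further sites, marked as such, after their values had been seen. The macrophage, lymphocyte, and fibroblast and epithelium marker lists were read in RNA only. Correlations of deviations between same-numbered libraries of different groups were -0.00779 to 0.00962. Libraries of a group differed by no more than counting error, so these correlations cannot show whether the replicate numbers pair the libraries. Alternatives covered scaling, pseudocount, filters, weights, moderation, threshold, the replicate block and leaving out each library.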

Additional observations from a re-analysis of the deposited data

Results flagged for a closer look

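The interaction is itself a test of whether the LPS change differed between the genotypes, and it singled out 2203 sites as higher and 2125 as lower (limma, Benjamini-Hochberg adjusted p under 0.05). Every named site but the Ccl2 promoter passed it. Among sites with a mean of at least 30, taking 1 per gene, the largest positive values were 3.47 at Gm21637, 3.25 at Tsn, 3.10 at Vmn1r28, 2.98 at Tdpoz2, 2.74 at Eya1, 2.68 at Gm7056, 2.67 at 6820431F20Rik, 2.62 at Gm12789, and 2.59 at both Gm12381 and Nrsn1. Under the same limits the largest negative values were -2.27 at Myom2, -2.20 at Txndc11, -2.17 at Ucp3, -2.14 at Pid1, -1.97 at Ptpn22 and Usp2, -1.96 at Dab2, -1.86 at Olfr116, and -1.85 at Arhgap21 and Pdzd8.

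Among list genes, positive values were 1.84 at Marco, 1.57 at Cdk1, 1.27 at Chac1, 1.19 at Ctsk, 1.17 at Jun, 1.11 at Tbl1xr1, 1.1 at Abcg1, 1.05 at Csf1 and 0.77 at Irak3. Negative values were -1.94 at Asns, -1.88 at Irf1, -1.36 at Atp6v0d2, -1.13 at the other Tbl1xr1 site, -1.11 at Pparg, -1.09 at Cdkn1a, -1.08 at the other Csf1 site, -1.07 at Tlr2, -1.03 at Birc3, -0.76 at Junb and -0.41 at Ctss. Groups of 2 libraries are too small to look for a library far from the others.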

How the results depend on the processing

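The edgeR and DESeq2 alternatives were not run. Over the other settings the named sites kept their direction and side of the threshold in 771 cases, lost the call in 41 and reversed in 2, both at the Ccl2 promoter (-0.07 without the second GPS2 KO untreated library, -0.04 without the first WT library with LPS, where leaving out other libraries gave up to 0.26). Interaction calls (higher and lower) were 1034 and 1828 with a mean of at least 30, 1047 and 968 at adjusted p under 0.01, 3197 and 1122 with library totals, and 1235 and 1654 in no repeat, a count added after seeing the data. Other settings gave counts within 1.5 times of the main ones. The replicate block gave 2234 higher and 2213 lower, and changed no other call by over 1.5 times. Without 1 library the counts ranged from 1113 to 1903 higher and from 1069 to 1807 lower. They fell below the main ones by over 1.5 times without the first or second GPS2 KO untreated library (1273, 1331 higher), the first or second WT library with LPS (1315, 1113 higher), the first WT untreated library (1386 lower), or the first or second GPS2 KO library with LPS (1110, 1069 lower). In all 8 such fits 612 sites were called higher, 221 of them RLTR45, and 513 lower.

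The single contrasts moved more, and the cause was not tested. For LPS in WT, calls higher were 3370 without weights, 689 with library totals, 3249 with a mean of at least 30 and 3492 at adjusted p under 0.01, and calls lower 30909 with library totals, 2385 with the mean filter and 1875 at 0.01. For LPS in GPS2 KO they were 1550, 2541 and 3220 higher with library totals, the mean filter and 0.01, and 20297 and 2116 lower with library totals and 0.01. For GPS2 KO against WT untreated they were 920, 273 and 1224 higher and 1010, 24079 and 656 lower without weights, with library totals and at 0.01. With LPS they were 986, 1085 and 1231 higher with library totals, the mean filter and 0.01, and 13166 and 860 lower with library totals and 0.01. Leaving out 1 library gave 2836 to 5691 higher and 1112 to 3977 lower for LPS in WT, 2480 to 5553 and 1764 to 4396 for LPS in GPS2 KO, 959 to 2513 and 378 to 1673 for the untreated genotypes, and 698 to 2633 and 591 to 2130 for the genotypes with LPS. Library totals moved the JunB medians to 0.094 over all shared sites, 0.46 at higher and -0.17 at lower PU.1 sites. At the median standard error of 0.44, interactions under log2 1 were often not detectable.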
